A study of Mus musculus with 4 samples.

Results

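The ligands and receptors of the epidermal growth factor (EGF) receptor family were examined in mouse intestinal organoids, which are epithelial cultures grown in Matrigel. The set holds 10 genes: the ligand genes Areg, Ereg, Egf, Tgfa, Hbegf and Btc, the receptor genes Egfr, Erbb2 and Erbb3, and Lrig1, which encodes a membrane inhibitor of these receptors. Members were all probe sets, the groups of short probes that read 1 transcript region, whose annotated gene symbol is exactly one of these names. Of 45101 probe sets, 22 met that rule, and they read 9 of the 10 genes. Areg had no such probe set and is not analysed here. The organoids carried floxed Apc alleles (Apc fl/fl) in every group. They were treated with 4-hydroxytamoxifen (4OHT) for 24 h to recombine Apc, or left untreated, and collected at day 4 or day 6. The APC protein helps to hold beta-catenin at low levels by promoting its destruction, and its loss raises Wnt target transcription. Each of the 4 groups (untreated day 4, 4OHT day 4, untreated day 6, 4OHT day 6) was 1 array, so no group has replicates and precision is limited by having 4 arrays in all. The driver of the 4OHT-activated Cre and the age of the animals were not given in the sources used here. Organoids with intact Apc given 4OHT were not analysed here.

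The EGF receptor family consists of receptor tyrosine kinases that pair when a ligand binds and then signal through the RAS-ERK and PI3K-AKT cascades. The ligands are made as membrane-anchored precursors that proteases release from the cell surface. ERBB2 binds no known ligand, and ERBB3 has little kinase activity of its own, so both act mainly as partners in receptor pairs. LRIG1 lowers receptor levels, and in the mouse intestine it marks stem and progenitor cells at the crypt base and restrains their growth. Paneth cells are a known source of EGF family ligands for neighbouring stem cells, and organoid media commonly contain added EGF. The culture medium was not given in the sources used here.

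Promoter sequence is shown for Lrig1, the member with the largest differences on these arrays, and for Egfr, the receptor that gives the family its name. Both are windows of 250 bases before to 50 bases after a RefSeq transcript start (build GRCm38.p6), printed 5′ to 3′ on the strand of the gene. Lrig1 lies on chromosome 6, minus strand, and its window is chr6:94700096-94700395. Egfr lies on chromosome 11, plus strand, and its window is chr11:16751953-16752252. Capitals mark matches to GGGCGG, the core of the GC box, on either strand.
Lrig1: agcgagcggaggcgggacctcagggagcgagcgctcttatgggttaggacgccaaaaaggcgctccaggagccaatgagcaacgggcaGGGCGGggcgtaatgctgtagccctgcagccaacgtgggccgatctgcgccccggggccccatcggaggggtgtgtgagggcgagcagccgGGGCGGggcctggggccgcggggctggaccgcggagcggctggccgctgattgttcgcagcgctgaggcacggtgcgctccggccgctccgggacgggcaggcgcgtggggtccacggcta
Egfr: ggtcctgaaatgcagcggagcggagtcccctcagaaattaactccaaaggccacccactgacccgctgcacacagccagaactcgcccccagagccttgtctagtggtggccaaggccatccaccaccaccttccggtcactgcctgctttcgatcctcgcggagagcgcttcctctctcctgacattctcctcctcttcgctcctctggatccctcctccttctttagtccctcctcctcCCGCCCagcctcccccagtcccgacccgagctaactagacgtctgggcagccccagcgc
The Lrig1 window is rich in CpG, with 35 CpG pairs and 73.0% G and C. The Egfr window has 15 CpG pairs and 62.3% G and C, and the median over 32851 such windows of all genes was 7 CpG pairs and 52.7%. Relative to the transcript start, GGGCGG begins at -162 and -71 in the Lrig1 window, and a match on the other strand begins at -9 in the Egfr window. A GC box core was found in 35.7% of all windows. The letters CTTTG followed by 2 bases that are each A or T, a motif of the TCF and LEF factors that act with beta-catenin, were in neither window on either strand and were in 16.9% of all windows. The AP-1 motif TGACTCA was likewise in neither window on either strand, and was in 5.20% of all windows. The windows of 7 members were in the table (Areg, Btc, Egf with 2 windows, Tgfa, Lrig1, Egfr and Erbb2), and none of those windows held the TCF and LEF letters. Ereg and Btc lie next to Areg on chromosome 5, with Epgn, another ligand gene, on the far side of Ereg.

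The values are deposited probe-set intensities on a linear scale. A probe set was tested where its highest value on the 4 arrays reached 20.9, the median of all values, which 23055 probe sets with 1 gene did. Of the 22 member probe sets, 18 passed, and they read 8 genes. The Egf probe set (intensities of 9.21, 9.41, 11.8 and 14.6, here and below in the order untreated day 4, 4OHT day 4, untreated day 6, 4OHT day 6), 1 of 2 for Btc, 1 of 7 for Egfr and 1 of 2 for Erbb3 did not pass and are given no call. Differences are of log2(intensity + 16), a scale that understates the change of dim probe sets. Brightness depends on the probes, so levels are compared between arrays and not between genes.

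The arrays of the different days stand apart as a whole, and their scaling to each other is unknown. The 25th and 75th percentiles of intensity were 10.9 and 55.5 on the untreated array of day 4 and 7.88 and 79.3 on that of day 6. Spiked poly-A controls were lower at day 6 by 2.87 (untreated) and 1.02 (4OHT) on the log2 intensity scale, and were higher with 4OHT by 1.39 at day 6 and lower by 0.46 at day 4. The 3′ minus 5′ difference of Actb, which grows where RNA is degraded or copied short, was 2.96, 3.90, 1.72 and 2.34. Their part in the results below was not tested. All 11 epithelial markers (Epcam and Cdh1 among them) passed the level filter, with summed intensities of 20409, 21960.3, 41145 and 34252. The sum of 10 fibroblast and muscle markers was 254, 252, 148 and 148. Of the 6 tested, 3 fell over days and none rose over days or with 4OHT. No endothelial marker passed either test. Of 9 immune cell markers 7 were tested, and 4 of those fell over days. Only 1, Lyz2, which Paneth-cell lysozyme closely resembles, rose with 4OHT. Of all genes, 18% fell over days and 0.462% rose with 4OHT. The brightest Apc probe set read 27.2, 57.7, 99.6 and 170, which does not check the recombination, because the deleted exons are not named in the sources used here.

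**Figure D1:**
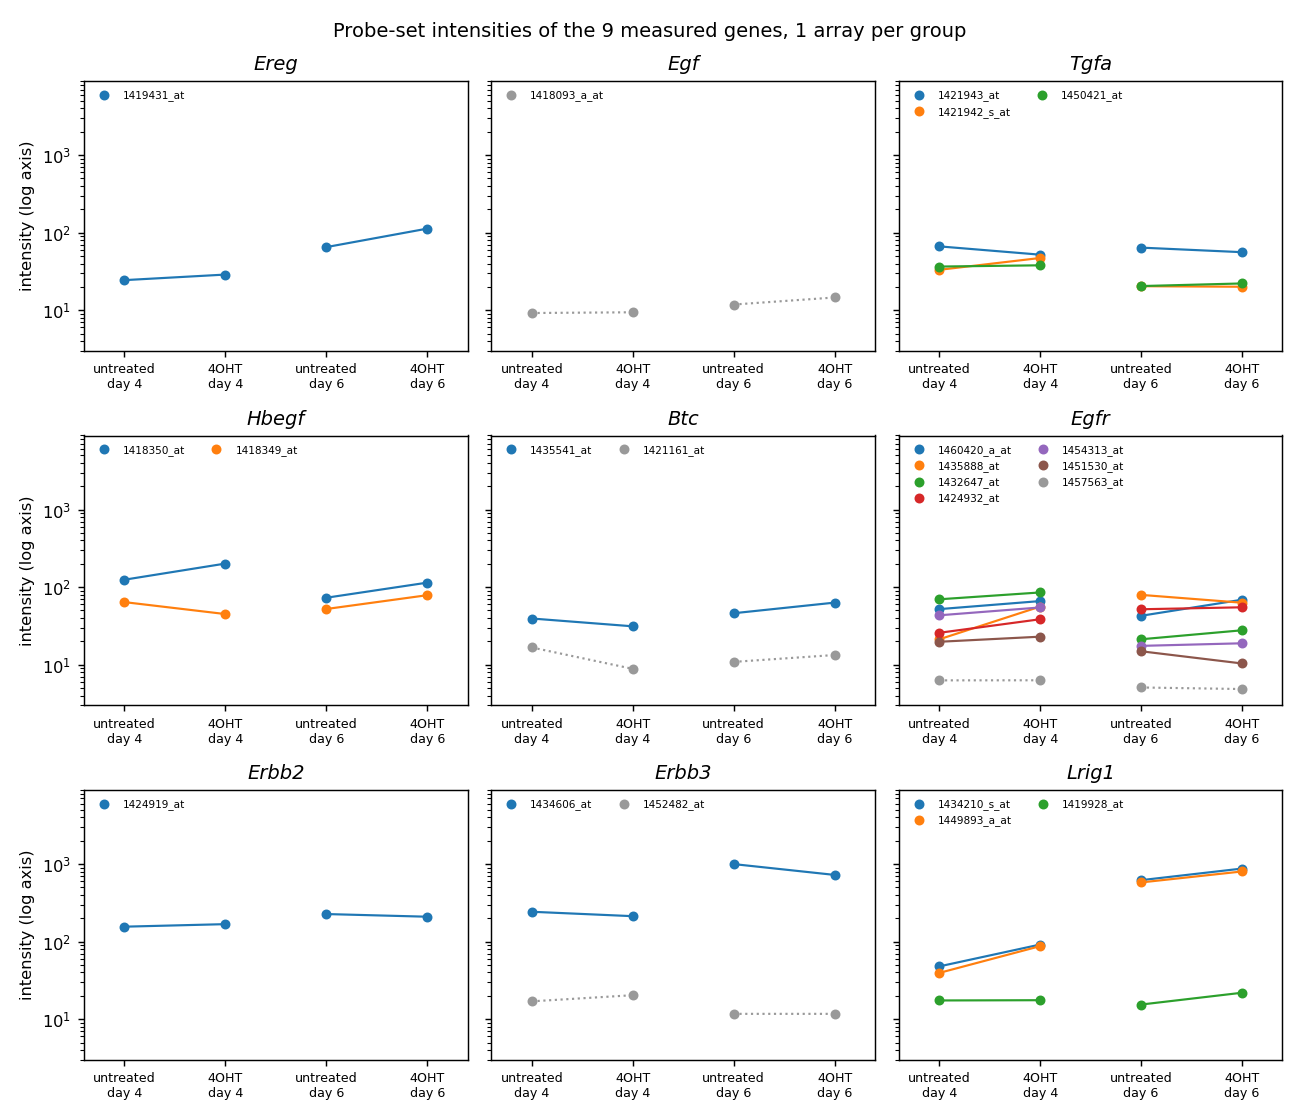
Intensity (log axis) of each member probe set on the 4 arrays, 1 panel per gene, 1 point per array, with lines joining untreated and 4OHT of the same day and grey dotted lines for probe sets under the level filter. Both bright Lrig1 probe sets and the bright Erbb3 probe set stand higher on both day 6 arrays, while Egfr probe sets run in different directions.

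Lrig1 had the largest differences of the set, and they followed the day. Probe set 1449893_a_at read 39.5, 87.4, 579 and 801, and probe set 1434210_s_at read 47.9, 91.6, 619 and 873. On both, each day 6 array was far above each day 4 array, and within each day the 4OHT array was the higher. The intensity ratio of day 6 to day 4 on 1449893_a_at was 14.7 in untreated and 9.17 in 4OHT organoids (10.7-fold and 7.90-fold on the log2(intensity + 16) scale). On 1434210_s_at the ratios were 12.9 and 9.53. In limma's test of day over both arms, which takes the arms as repeats, these probe sets rose by 3.20 ± 0.21 (SE, adjusted p = 4.45e-06) and 3.18 ± 0.20 (adjusted p = 4.37e-06). Both stood above 99.8% of tested probe sets in each arm. Probe set 1419928_at of the same gene was dim (17.4, 17.6, 15.4 and 21.9) and differed by 0.04 ± 0.20, so it did not follow the other probe sets. The day test, here and below, does not measure the spread between cultures. A change with day and a difference between the arrays of the days cannot be told apart.

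Many transcripts moved between the days, so the members' counts need that background. Limma's day term called 50.2% of tested probe sets (34.5% rose and 15.6% fell), and 10 of 18 member probe sets, of which 6 rose and 4 fell. After quantile normalization the split was 4 up and 5 down for members, and 5602 up and 5130 down over all. At 2-fold in untreated organoids 5 member probe sets were higher and 1 lower at day 6, where 23.7% and 4.43% of all were (28.1% either way). In 4OHT organoids 4 were higher and 2 lower, where 16.2% and 2.47% of all were (18.7% either way). These counts rest on 18 probe sets of 8 genes, and their distance from the background was not tested. The 2 lower in 4OHT organoids were Egfr 1432647_at and 1454313_at, which are annotated to the same sequence record. The median of all tested probe sets was 0.21 (untreated) and 0.07 (4OHT) for day 6 against day 4. Quantile normalization moved these medians by -0.24 and -0.15 and median centring by 0.11 and 0.098. Relative to the median of all, 1449893_a_at was higher by 3.21 and 2.91 as deposited and by 3.01 and 2.65 after quantile normalization.

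**Figure D2:**
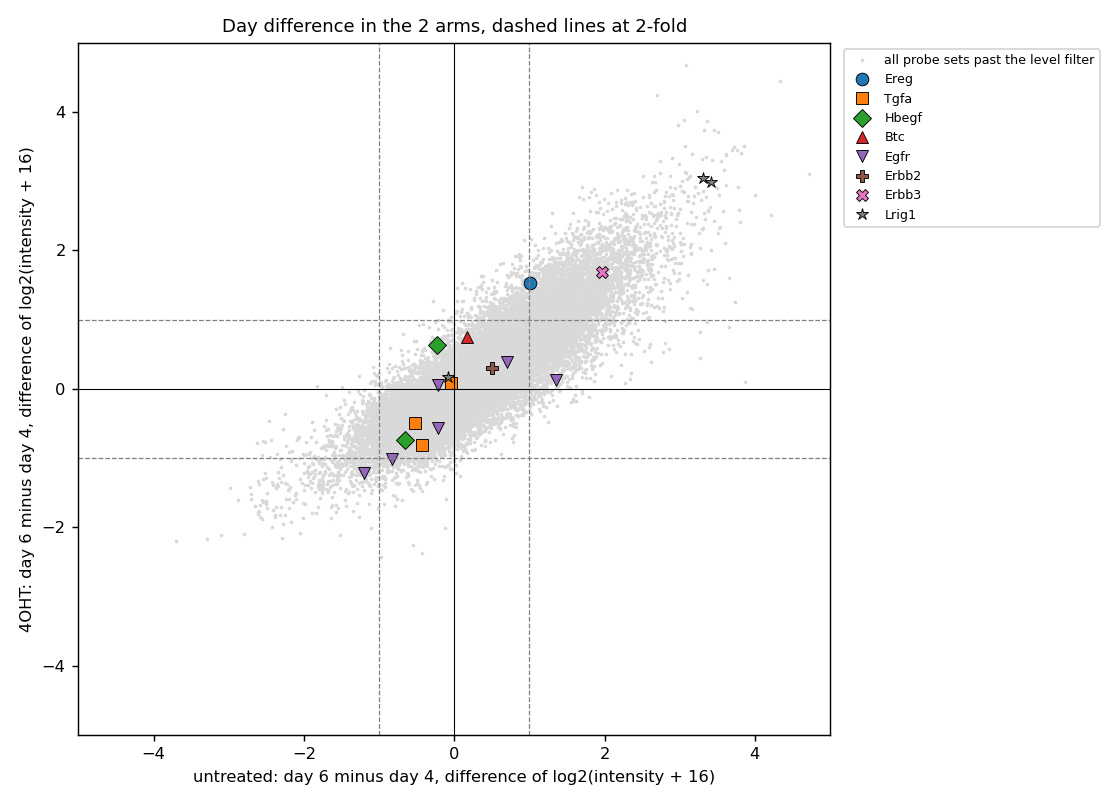
Day 6 minus day 4 in untreated (x axis) and 4OHT organoids (y axis), as differences of log2(intensity + 16), for the member probe sets (coloured) and all tested probe sets (grey, with 1 outside the axes). Both bright Lrig1 probe sets lie near 3 in both arms, beyond Erbb3 and Ereg, and Egfr probe sets lie on both sides of 0.

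Among the receptors, the bright probe set of Erbb3 rose with day and Erbb2 did not pass. Erbb3 probe set 1434606_at read 242, 213, 997 and 723. Both day 6 arrays were above both day 4 arrays, and within each day the 4OHT array was the lower. It rose by 1.83 ± 0.21 over days (adjusted p = 4.92e-05), was 3.92-fold higher in untreated and 3.23-fold in 4OHT organoids, and stood above 95.7% of tested probe sets in each arm. After quantile normalization the differences were 1.28 and 1.24. The other Erbb3 probe set, 1452482_at, lay under the level filter and is given no call. It read 17.0, 20.4, 11.7 and 11.7, lower at day 6 in both arms (-0.25 and -0.39). The epithelial markers moved the same way as 1434606_at, with 9 of 11 risen over days and none fallen, against 34.9% and 18% of all genes. Among these markers, Epcam read 906, 891, 5080.0 and 4549. In whole organoids, a change in the share of cells of a type and a change in RNA per cell cannot be told apart. Erbb2 read 156, 168, 226 and 209. Its day difference was 0.40 ± 0.20 (adjusted p = 0.121), and it turned to -0.18 after quantile normalization.

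Egfr itself was read by 6 probe sets past the level filter, and these did not move together. With day, 1432647_at fell by 1.21 ± 0.20 (adjusted p = 0.000567) and 1454313_at by 0.92 ± 0.20 (adjusted p = 0.00323). Both are annotated to the same sequence record. In contrast, 1435888_at rose by 0.74 ± 0.27 (adjusted p = 0.039) and 1424932_at rose by 0.54 ± 0.21 (adjusted p = 0.0476). Those last calls were lost with a pseudocount of 1 or 64, with quantile normalization and without the level filter. The remaining 1460420_a_at (-0.08 ± 0.20) and 1451530_at (-0.39 ± 0.21) did not pass. 1432647_at read 69.7, 85.4, 21.3 and 27.8, with both day 6 arrays low. 1424932_at read 25.8, 38.5, 51.8 and 54.9, with both day 6 arrays high, while 1451530_at, annotated to the same record as 1424932_at, read 19.8, 23.0, 14.9 and 10.4. No single direction over days can therefore be given for Egfr.

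Among the ligands, Ereg rose with day. Epiregulin, its product, activates EGFR and ERBB4. The probe set 1419431_at read 24.4, 28.8, 65.1 and 113, lowest on the untreated array of day 4 and highest on the 4OHT array of day 6. It rose by 1.26 ± 0.22 over days (adjusted p = 0.000648), by 2.01-fold in untreated and 2.87-fold in 4OHT organoids on the log2(intensity + 16) scale. The first of these fell below 2-fold after quantile normalization (0.89 on the log2 scale), and with a pseudocount of 64 both did (0.55 and 0.93), while the limma call over days held under each alternative run.

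Hbegf encodes the heparin-binding ligand of EGFR and ERBB4. Its brighter probe set 1418350_at read 125, 201, 73.0 and 114, and fell by 0.70 ± 0.20 over days (adjusted p = 0.014). On this probe set each day 6 array was below the day 4 array of its arm, and on both days 4OHT was the higher. The dimmer 1418349_at, annotated to the same record, read 64.1, 44.9, 52.2 and 78.7 and differed by 0.20 ± 0.24 over days, without passing.

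Tgfa encodes transforming growth factor alpha, a ligand of EGFR made by intestinal epithelium. Its 3 probe sets are annotated to 1 record. 1421942_s_at read 33.2, 47.2, 20.4 and 20.1 and fell by 0.62 ± 0.21 over days (adjusted p = 0.0282), a call lost with a pseudocount of 64, with median centring and without the level filter. 1450421_at read 36.5, 37.9, 20.5 and 22.1, lower at day 6 in both arms but just short of the threshold (-0.51 ± 0.20, adjusted p = 0.0518). It passed with a pseudocount of 1 (adjusted p = 0.036), quantile normalization (0.0442), no level filter (0.0489) and a level-dependent prior (0.0363). The brightest, 1421943_at, read 66.5, 52.0, 64.1 and 56.0 and differed by 0.02 ± 0.20, so the dimmer probe sets were not followed by it. Btc, which encodes betacellulin, read 39.4, 31.2, 46.1 and 63.1 on 1435541_at, with a day difference of 0.45 ± 0.22 (adjusted p = 0.10) that passed only after median centring (adjusted p = 0.0474).

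4OHT-treated organoids were set against untreated organoids of the same day. Recombination of Apc and any effect of 4OHT itself cannot be told apart in this comparison. No member probe set passed limma's test of 4OHT over both days, and 1.33% of all tested probe sets did (0.338% rose and 0.993% fell). At an unadjusted p under 0.05 there were 3 of 18 members, against 11.9% of all. At 2-fold none of the 18 was higher or lower at day 4, where 0.902% of all were higher and 0.911% lower (1.81% either way). Nor was any at day 6, where 0.668% of all were higher and 2.51% lower (3.18% either way). The test takes the days as repeats and does not measure the spread between cultures. At day 4 the members' differences lay between -0.39 and 0.95, and at day 6 between -0.45 and 0.67. Their median was 0.20 at day 4 and 0.15 at day 6, beside 0.05 and -0.02 over all tested probe sets. On both days 10 of the 18 were higher with 4OHT and 2 were lower, against 29.5% and 27.1% of all. Probe sets of 1 gene share transcripts, so these 10 are not independent. Among the 10, Lrig1 1419928_at passed the level filter only through the 4OHT array of day 6. Its higher value there is therefore tied to the filter.

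**Figure D3:**
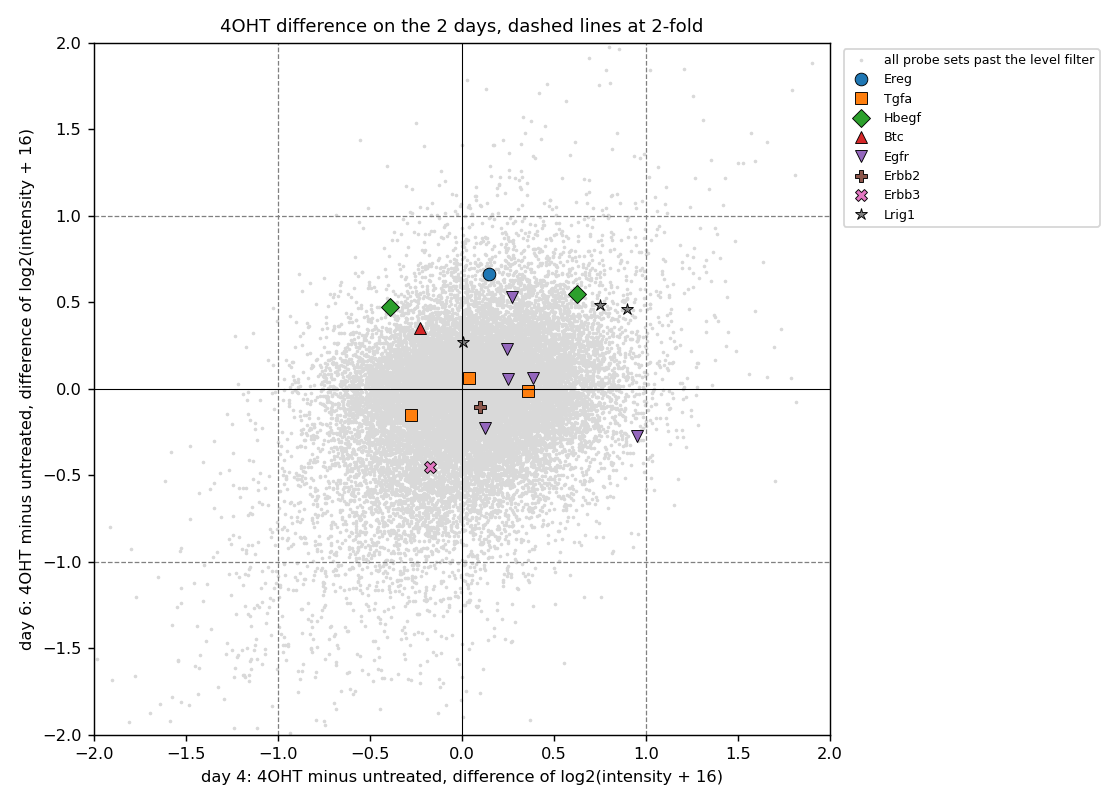
4OHT minus untreated at day 4 (x axis) and day 6 (y axis), as differences of log2(intensity + 16), for the member probe sets (coloured) and all tested probe sets (grey, with 79 outside the axes). No member probe set lies beyond the dashed 2-fold lines, and the bright probe sets of Lrig1 and Hbegf lie up and to the right.

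The 3 with an unadjusted p under 0.05 were the bright probe sets of Lrig1 and Hbegf, all higher with 4OHT on both days. Lrig1 1449893_a_at was higher by 0.90 at day 4 and 0.46 at day 6 (mean 0.68 ± 0.21, adjusted p = 0.187). Lrig1 1434210_s_at was higher by 0.75 and 0.49 (mean 0.62 ± 0.20, adjusted p = 0.224). Over the alternatives run, the adjusted p of 1449893_a_at was 0.0506 at its lowest, with quantile normalization, and never passed. Hbegf 1418350_at was higher by 0.63 and 0.55 (mean 0.59 ± 0.20, adjusted p = 0.244), but 1418349_at of the same gene was lower by 0.39 at day 4 and higher by 0.47 at day 6. Ereg was higher by 0.15 and 0.67 (mean 0.41 ± 0.22, adjusted p = 0.501), and at day 6 it stood above 97.4% of tested probe sets.

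No Egfr probe set passed with 4OHT. Of the 6, all were higher at day 4, while at day 6 4 were higher and 2 lower (1435888_at by 0.27 and 1451530_at by 0.23). At day 4 the median over all tested probe sets was 0.05, and the share of them that were higher was not counted. 1451530_at passed the level filter only through the 4OHT array of day 4, so its higher value there is tied to the filter. The mean of 1451530_at was -0.05 ± 0.21. The largest difference was that of 1435888_at at day 4 (0.95, from 21.2 to 56.1), which read 79.4 and 62.9 at day 6, so that only the untreated array of day 4 stood low. 1460420_a_at was higher by 0.27 and 0.53 (mean 0.40 ± 0.20, adjusted p = 0.484). Erbb3 was lower by 0.18 and 0.45 (mean -0.32 ± 0.21, adjusted p = 0.614), and Erbb2 differed by 0.10 and -0.11. Of the ligands not yet given, Btc was lower by 0.23 at day 4 and higher by 0.35 at day 6. The Tgfa probe sets differed by -0.28, 0.36 and 0.04 at day 4 and by -0.15, -0.01 and 0.06 at day 6, in the order 1421943_at, 1421942_s_at and 1450421_at.

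Markers of the cells known to make or need these ligands moved on the same arrays. As background, 0.462% of all genes rose and 1.35% fell with 4OHT by their brightest probe set. Over days 34.9% of all genes rose and 18% fell. Of 5 Paneth cell markers measured, Mmp7, Ang4 and Itln1 rose with 4OHT and 3 (Mmp7, Ang4 and Pla2g2a) fell over days. The summed intensities of the 5 were 28964, 46532, 12502 and 43260.4. The day differences in untreated and 4OHT organoids were -1.71 and -0.59 for Mmp7, -2.26 and -0.37 for Ang4, and -0.90 and -0.68 for Pla2g2a. Of 8 crypt base stem cell markers none passed with 4OHT, though the stem cell marker Lgr5 read 254, 313, 597 and 1186. Over days 6 of these 8 rose and 1 fell, with sums of 1587, 1893, 6799 and 10818. Olfm4 was the brightest of these on each array (833, 839, 4167 and 6266), and Tnfrsf19 of the same list ran otherwise (22.7, 55.7, 9.06 and 22.7). Of 10 enterocyte markers 7 fell with 4OHT, none rose and 8 rose over days, with sums of 3665, 1367, 12370.2 and 5812. No listed marker was at 0 on any array, but neither was any probe set. The lowest intensity of each array lay between 2.73 and 3.14, so this does not show that a marker was detected. The part of cell composition in the members' differences was not tested.

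For Lrig1, which had the widest range among the receptor genes and their inhibitor, and for Ereg and Hbegf, which had the widest among the ligands, the genes with the most similar profiles were found by the root mean square difference of mean-centred log2(intensity + 16) values over the 4 arrays. For Lrig1 they were Hoxb3, a homeobox factor gene (0.12), Clk1, a kinase gene of splicing factors (0.14), and Ttc14 (0.16). Clk1 read 125, 171, 1187 and 1518. For Ereg they were the DNA damage tolerance gene Rad18 (0.05), the RNA helicase gene Ddx17 (0.07) and Galnt12, a glycosyltransferase gene (0.08). For Hbegf 1418350_at they were the alanyl-tRNA synthetase gene Aars (0.03), Ift27 (0.03) and the glucose transporter gene Slc2a4 (0.04). These likenesses rest on 4 arrays and carry no test.

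The rest of the pathway was read through 81 listed genes, of which 73 were measured, 8 are not analysed here and 65 passed the level filter. None of the 65 passed limma's test with 4OHT, where 0.462% of 13199 genes rose and 1.35% fell by their brightest probe set (1.81% either way). At an unadjusted p under 0.05 there were 16, against 13.4% of all genes. Medians of the 4OHT difference over the 65 were 0.08 at day 4 and -0.06 at day 6, beside 0.06 and -0.01 for all genes. Over days 29 of the 65 rose and 8 fell, where 34.9% and 18% of all genes did.

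Of the other ligands and receptors (Epgn, Nrg1, Nrg2, Nrg3, Nrg4 and Erbb4), only Nrg2 and Nrg4 reached the level filter, and neither passed with 4OHT or with day. Erbb4 stayed at 3.36 to 4.63 and Epgn at 8.61 to 13.0. Nrg4, a ligand of ERBB4, read 14.1, 12.2, 22.3 and 7.92 and differed by -0.39 ± 0.22 with 4OHT (adjusted p = 0.543). In the list of proteases that release ligands and the proteins that control them, 8 were tested, 4 rose over days and none fell. Of all genes, 34.9% rose over days and 18% fell. The iRhom gene Rhbdf1, whose product carries ADAM17 to the cell surface, read 203, 331, 265 and 538. It was higher with 4OHT on both days (0.82 ± 0.21) without passing (adjusted p = 0.0914), and passed after quantile normalization (adjusted p = 0.0406). Adam10, the main protease that sheds EGF and betacellulin, read 132, 146, 665 and 530.2 and rose by 1.98 ± 0.21 over days. Adam17, which sheds TGF-alpha, amphiregulin and HB-EGF, read 77.5, 117, 84.3 and 64.7 and did not pass over days (-0.31 ± 0.24). Adam10 and Adam17 were named after their values were seen.

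Downstream, 14 adaptor and RAS-ERK genes were tested, 9 rose over days and none fell. Beside this and the next lists, 34.9% of all genes rose over days and 18% fell. The ERK-activated kinase gene Rps6ka3 read 184, 99.6, 488 and 311. It rose by 1.42 ± 0.20 over days and was lower with 4OHT on both days (-0.71 ± 0.20, adjusted p = 0.149). In the PI3K and STAT branch 10 were tested, of which 1 rose and 2 fell over days. Plcg1, a phospholipase gene, differed by 0.38 ± 0.22 with 4OHT (adjusted p = 0.553). Of 15 negative regulators 9 rose and 2 fell over days. Tob1, a gene for an antiproliferative protein, read 114, 65.0, 658 and 350.0, rose by 2.28 ± 0.20 over days and was lower with 4OHT on both days (-0.78 ± 0.20, adjusted p = 0.105; 0.0494 after quantile normalization). The other LRIG genes did not match Lrig1 in size: Lrig2 rose by 0.87 ± 0.21 over days, and Lrig3 differed by 0.33 ± 0.20 (adjusted p = 0.191), both named after their values were seen.

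Feedback and target genes of ERK moved both ways over days, with 6 risen and 4 fallen of 16 tested, against 34.9% and 18% of all genes. Fos, an immediate early gene of the pathway, read 116, 73.9, 439 and 140.0, and rose by 1.29 ± 0.25 over days. With 4OHT it was lower by 0.56 at day 4 and 1.54 at day 6 (-1.05 ± 0.25, adjusted p = 0.0719), and it passed after quantile normalization (adjusted p = 0.0092) and median centring (adjusted p = 0.0395). Dusp6, an ERK phosphatase gene that ERK induces, read 45.8, 44.4, 107 and 116 and differed by 0.03 ± 0.20 with 4OHT. Egr1, another immediate early gene, differed by 0.18 ± 0.20 and Phlda1 by 0.79 ± 0.24 with 4OHT (adjusted p = 0.808 and 0.182). Dusp6, Egr1 and Phlda1 were named after their values were seen.

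**Figure D4:**
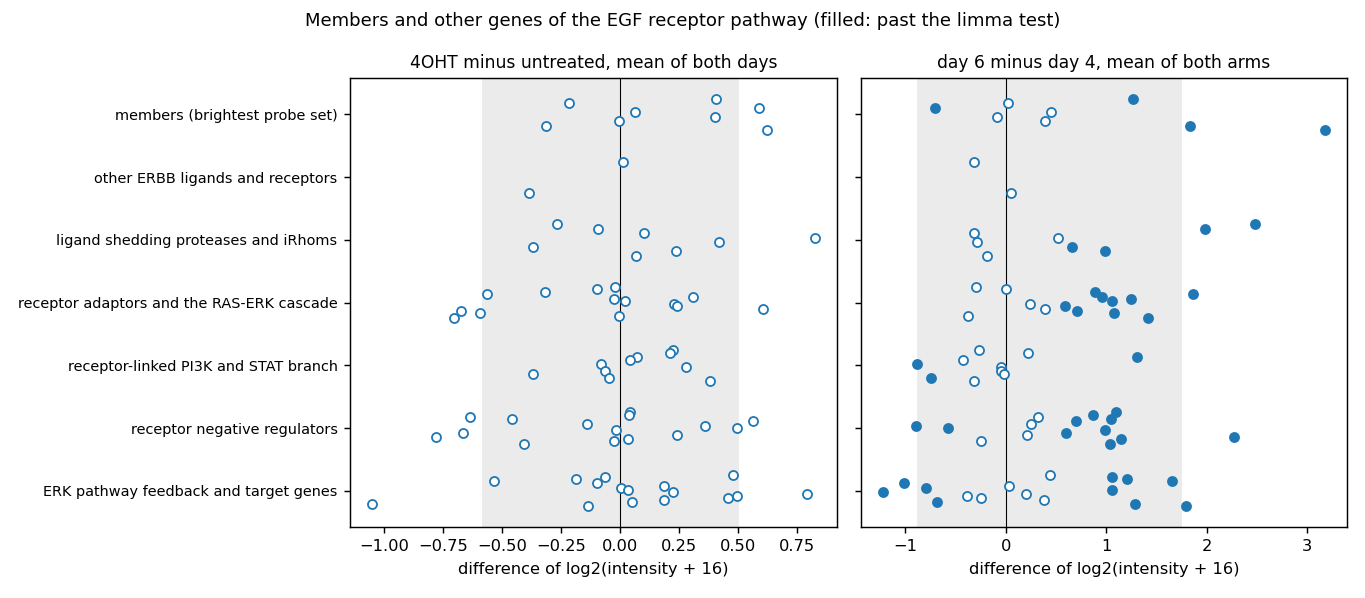
Mean 4OHT difference over both days (left) and mean day difference over both arms (right), as differences of log2(intensity + 16), with 1 point per tested gene, read by its brightest probe set. Filled points passed limma's test and the grey band spans the 5th to 95th percentiles of all genes. No point is filled for 4OHT, and Lrig1 is the rightmost point for day.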

How the data were processed

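Per the labels' protocols, 100 ng of RNA per sample was amplified from the 3′ end, labelled with biotin and hybridized to Affymetrix arrays. The authors deposited linear probe-set intensities, whose background correction, normalization and summarisation were not given in the sources used here. No detection calls were used here. Of 45101 probe sets, 34958 name 1 gene, 932 name several and 9211 are not in the platform annotation used here; only those with 1 gene were tested. Values were used as deposited, as log2(intensity + 16).

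Each group is 1 array, so single contrasts were counted at 2-fold with no p-value. Limma 3.58.1 (R 4.3.3) was fitted with 4OHT and day as additive terms on all 23055 tested probe sets, with Benjamini-Hochberg adjustment and a threshold of 0.05. It has 1 residual degree of freedom, the difference between the days' effects, and 10.5 prior degrees of freedom. It was also run on simulated data with an equal 4OHT effect on both days and independent noise. That run does not test whether the 4 arrays meet those settings. "Rose" and "fell" are kept for calls of the limma fit. The labels do not say that arrays are separate cultures. Pathway genes were read by their brightest probe set and described by counts and medians. Every member was named; from a pathway list with no 4OHT call the gene with the largest mean difference of the same direction on both days was named, and for likeness the 3 nearest genes of the 2 ligands and the receptor gene, Lrig1 included, of widest range. Epcam, Lgr5, Olfm4, Tnfrsf19, Nrg2, Epgn, Erbb4 and the marker genes named were chosen after their values were seen. The members and lists were chosen with earlier results of these data known. Alternatives were pseudocounts of 1 and 64, quantile normalization, median centring, no level filter, no _x_at or _s_at probe sets, 1.5-fold, a level-dependent prior, no day term and the mean of a gene's probe sets. Python 3.11.15, pandas 2.3.3 and numpy 2.4.6 were used for tables, matplotlib 3.10.9 for plots.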

Additional observations from a re-analysis of the deposited data

Results flagged for a closer look

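In 3 probe sets the 4OHT difference had opposite signs on the days, with at least 0.2 on the log2 scale each way. The difference between the days was not tested, since each value sets 1 array against 1. Egfr 1435888_at differed by 0.95 at day 4 and -0.27 at day 6. Hbegf 1418349_at differed by -0.39 and 0.47, and its difference between days was -0.23 in untreated and 0.64 in 4OHT organoids. Btc 1435541_at differed by -0.23 and 0.35. Opposite signs of any size were found in 6 of 18 member probe sets, against 43.4% of all tested. The share of all tested with at least 0.2 each way was not counted, so the 3 have no background.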

How the results depend on the processing

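The labels give no replicate numbers to pair by, but the day term sets each 4OHT array against the untreated array of its day. Leaving out an array leaves the test no residual degrees of freedom. No member passed with 4OHT under any of the 8 alternatives run on that test. That says little under pseudocounts of 1 and 64, no level filter and no day term, where 0 of all probe sets passed, against 307 as reported and 618 with quantile normalization. Member counts past 2-fold with 4OHT at day 4 went from 0 to 2 with a pseudocount of 1, 2 with quantile normalization (Egfr 1435888_at and Lrig1 1449893_a_at in both) and 4 at 1.5-fold; at day 6 the count was 1 at 1.5-fold. For day 6 against day 4 a pseudocount of 64 left 3 of 6 in untreated and 3 of 6 in 4OHT organoids, and 1.5-fold gave 10 in the latter. Shares of all probe sets past 2-fold or 1.5-fold under these alternatives were not counted, so those member counts have no background here. The limma count over days stayed between 7 (pseudocount of 64) and 11 (level-dependent prior). At those settings 8374 and 12086 of all 23055 tested probe sets were called. Pathway genes past the 4OHT test numbered 3 with quantile normalization and 1 with median centring. Signs turned only in differences that had not passed. With quantile normalization the 4OHT difference became -0.047 (Hbegf 1418349_at), -0.0068 (Btc 1435541_at) and 0.0032 (Erbb2), and the day difference -0.32 (Tgfa 1421943_at), -0.12 (Hbegf 1418349_at) and -0.18 (Erbb2). With median centring the day difference of Egfr 1460420_a_at became 0.019. The rise of Lrig1 1449893_a_at over days ranged from 2.57 to 3.51 and that of Erbb3 from 1.26 to 1.93, past the test throughout. Dim probe sets lie close to the offset of 16, which limits what can be seen of Egf, Btc, Tgfa and Ereg.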
